A study of Mus musculus with 8 samples.

Results

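The genes described here are 10 members of the Hippo pathway and its transcriptional output: Yap1, Wwtr1, Tead1, Tead3, Lats1, Lats2, Amotl2, Ankrd1, Cyr61 and Ctgf. They were taken from 21938 protein-coding genes by name, and every accessible region that overlapped a gene body or the 20 kb on either side was assigned to the gene. This gave 280 of the 315767 accessible regions found by bulk ATAC-Seq, an assay in which the Tn5 transposase cuts open DNA. Regions within 1 kb of an annotated start site of the gene (its promoter) were kept apart from distal regions. The nuclei came from hepatocytes of C57BL/6 mice 10 to 12 weeks old on normal diet, isolated by collagenase perfusion. Undamaged liver (0 h) was compared with liver taken 48, 72 and 96 h after partial hepatectomy (PHx), an operation that takes out part of the organ, with 2 libraries for each time point. The study's methods give male mice of the C57BL/6J substrain and an age range at PHx that starts below 10 weeks. The labels name no genetic change in any group, and the 0 h liver is called undamaged rather than sham-operated.

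The Hippo pathway limits organ size. Its kinases LATS1 and LATS2 phosphorylate the coactivators YAP (from Yap1) and TAZ (from Wwtr1), which then stay out of the nucleus. When the kinases are off, YAP and TAZ enter the nucleus, bind TEAD factors on DNA and switch on genes such as Ctgf, Cyr61 and Ankrd1. Amotl2 encodes an angiomotin that holds YAP in the cytoplasm, and Lats2 and Amotl2 are themselves YAP targets. In the liver this pathway restrains hepatocyte growth, and mice with active YAP in hepatocytes develop enlarged livers.

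Each library's list of accessible regions was ranked by the peak caller's −log10 p, so that rank 1 is the strongest region of a library and a smaller rank is a stronger region. The lists held between 105206 and 154577 distinct intervals and carried no read counts, so the depth behind a rank is unknown. At rank 50000 the −log10 p was 15.2 and 9.96 at 0 h, then 8.05 and 8.62 (48 h), 14.8 and 14.0 (72 h) and 14.5 and 8.29 (96 h). Of the hepatocyte markers, 9 of 10 were matched by symbol, and the summed fold enrichment over their promoters was 45.5 and 46.3 at 0 h, then 23.7 and 34.4 (48 h), 39.5 and 30.8 (72 h) and 40.4 and 42.3 (96 h). All 9 of these promoters were listed in both 0 h libraries, against 6 and 8 of 9 at 48 h, then 8 and 7 (72 h) and 9 and 8 (96 h). Of 8 macrophage markers, 1 or 2 promoters were listed in each library with a summed fold enrichment of 1.7 to 6.3, and the promoters of Csf1r, Marco, Vsig4, Timd4 and Ptprc were in no list. Biliary marker promoters summed to 39.2 and 31.3 at 0 h and to 26.2 and 26.9 in the 48 h libraries, endothelial ones to 37.2 and 39.6 against 32.1 and 28.9, and stellate and fibroblast ones to 47.7 and 38.6 against 35.8 and 44.8. On the −log2 rank scale (positive is stronger after PHx), the median 48 h difference was −0.745 for the 5 hepatocyte marker promoters listed in every library. It was 0.514 for 4 stellate and fibroblast, 0.234 for 4 endothelial, 0.161 for 1 macrophage and 0.023 for 3 biliary ones. Coding promoters gave −0.178, and none of these marker promoters was called by limma. In bulk nuclei, a different share of a cell type and a different accessibility per cell cannot be told apart, and the part of the marker levels in the results was not tested.

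TEAD factors bind DNA at sites with the core letters GGAATG, which read CATTCC on the other strand. The sequences below show those letters in the promoters of the coactivator Yap1, of the inhibitor Amotl2 and of the targets Cyr61 and Ankrd1, and the window around a Lats2 intronic region described further on, which holds an AP-1 match. They were read from the GRCm38.p6 assembly, the same build as mm10, with promoter positions from RefSeq. All run 5′ to 3′ on the gene's strand except the Lats2 window, which is on the plus strand, and capitals mark the TEAD letters or, in the Lats2 window, the AP-1 letters TGACTCA.
Yap1 promoter, chr9:8004597-8004846, minus strand: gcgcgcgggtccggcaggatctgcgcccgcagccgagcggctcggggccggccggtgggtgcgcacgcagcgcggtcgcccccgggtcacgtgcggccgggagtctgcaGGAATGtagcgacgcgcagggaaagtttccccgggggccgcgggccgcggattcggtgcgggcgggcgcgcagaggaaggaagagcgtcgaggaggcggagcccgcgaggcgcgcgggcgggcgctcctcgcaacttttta
Cyr61 promoter, chr3:145649986-145650235, minus strand: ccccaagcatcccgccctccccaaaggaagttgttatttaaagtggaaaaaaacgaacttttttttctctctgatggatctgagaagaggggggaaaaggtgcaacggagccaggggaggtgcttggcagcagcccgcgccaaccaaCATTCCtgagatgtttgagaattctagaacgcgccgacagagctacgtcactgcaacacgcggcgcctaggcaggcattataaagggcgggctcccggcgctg
Amotl2 site, chr9:102717727-102717756, plus strand: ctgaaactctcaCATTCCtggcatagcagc
Ankrd1 site, chr19:36120037-36120066, minus strand: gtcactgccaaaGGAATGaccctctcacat
Ankrd1 second site, chr19:36119950-36119979, minus strand: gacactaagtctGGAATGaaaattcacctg
Lats2 intronic window, chr14:57729917-57730216, plus strand: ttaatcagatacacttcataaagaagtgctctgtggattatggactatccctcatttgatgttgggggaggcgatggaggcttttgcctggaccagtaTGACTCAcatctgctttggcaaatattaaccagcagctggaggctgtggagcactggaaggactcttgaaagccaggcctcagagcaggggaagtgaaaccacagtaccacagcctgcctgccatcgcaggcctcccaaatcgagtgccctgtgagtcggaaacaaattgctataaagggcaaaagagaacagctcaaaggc

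The RefSeq promoter table held 8 of the 10 genes, and Tead1 and Ctgf were not among them. In the 250 bases before the start, 6 of these 8 genes carried GGAATG on either strand, namely Yap1, Wwtr1, Tead3, Amotl2, Ankrd1 and Cyr61. Lats1 and Lats2 did not carry the letters in this stretch. The match lay 141 bases upstream of the start in Yap1 and 103 bases upstream in Cyr61, and Ankrd1 carried matches at 210 and at 123 bases upstream. For comparison, 12.6% of the 32851 promoters in the table, and 14.4% of its 27025 genes in any of their promoters, held the letters in the same stretch. These are letter matches without a test, and they do not show that a factor was bound.

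Promoters of 9 of the 10 genes were listed in every library, as were those of 60.4% of coding genes, and they spanned a wide range of strength. The promoter of Wwtr1, which encodes TAZ, was stronger than 87.0% of the promoters of the 16432 coding genes that had one listed in any library. Amotl2 followed with 86.4%, Yap1 with 81.0%, Tead3 with 77.9%, Lats1 with 74.5%, Lats2 with 63.3% and Tead1 with 52.8%. The secreted matricellular targets Cyr61 and Ctgf came last, with 39.6% and 35.8%. The order is by the median rank over the 8 libraries, and neighbours in it overlapped in their single-library ranks. Some of these promoter regions also lay within 1 kb of a start of another gene. Among them were those of Yap1 (Gm45494), Tead1 (2310014F06Rik), Lats2 (Gm49361) and Cyr61 (Gm17501). The promoter of Ankrd1, a nuclear ankyrin-repeat protein and a standard YAP target, was listed in none of the 8 libraries, as were those of 25.1% of coding genes, although it held both printed TEAD letter matches.

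**Figure D1:**
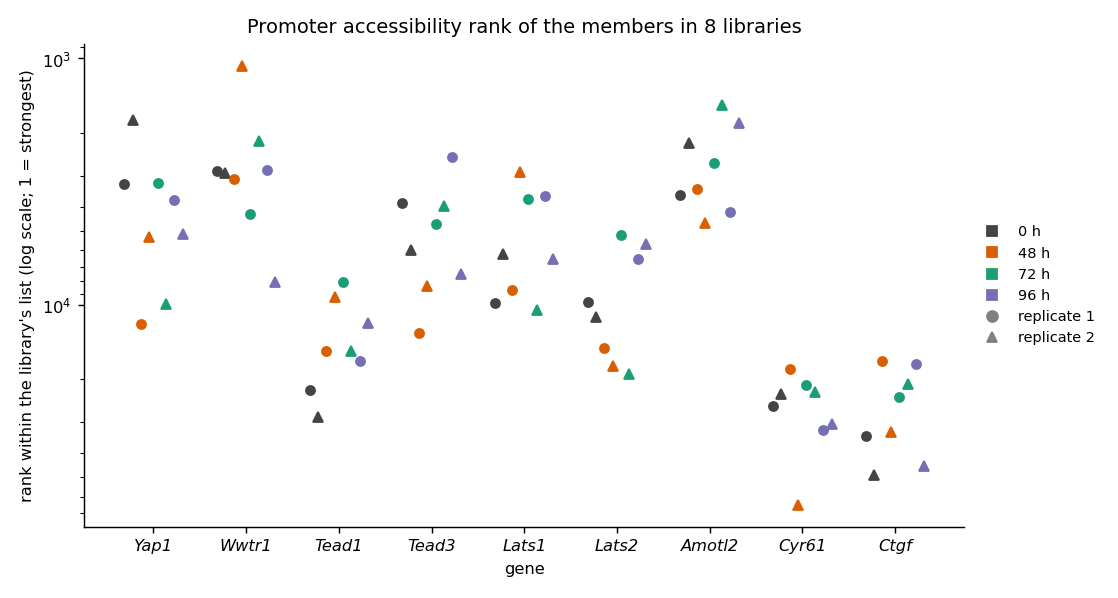
Rank of each promoter within the list of each of the 8 libraries, on a log axis with the strongest rank at the top, for the 9 genes with a listed promoter. Colors give the time after PHx and symbols the replicate, and the 6 Tead1 points after PHx lie above both 0 h points while the Yap1 points at 48 h lie below both.

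None of these 9 promoters was called between any time point and 0 h by limma over all 57473 regions listed in every library (adjusted p of 0.358 or more at 48 h), which does not show that they were the same. The whole table gave few calls too: 7 regions, 0.0122% of those tested, at 48 h, and 0.0% at 72 h, at 96 h and for the mean of the 3 times. At an unadjusted p under 0.05 the table held 6757 regions at 48 h (11.8%), 4556 at 72 h (7.93%), 3540 at 96 h (6.16%) and 5388 for the mean of the 3 times (9.37%). Of the 9 promoters, 1 reached that level at 48 h, 0 at 72 h, 0 at 96 h and 2 for the mean of the 3 times. With 2 libraries against 2, an exact permutation test cannot give a two-sided p below 0.333.

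As a description, promoters were also counted where both libraries of a time point lay on the same side of both 0 h libraries. At 48 h this held for 2 of the 9 promoters in the stronger direction, against 17.0% of 12018 coding promoters, and for 3 in the weaker direction, against 28.5%. At 72 h, 3 were stronger and 0 weaker, against 15.4% and 31.1%. At 96 h, 2 were stronger and 2 weaker, against 14.1% and 19.8%. The 3 times share the same 0 h libraries. When regions were ranked by fold enrichment instead, the stronger and weaker promoters numbered 1 and 3 at 48 h (20.6% and 19.8% of coding promoters), 3 and 1 at 72 h (14.8% and 26.6%) and 4 and 2 at 96 h (14.7% and 15.1%). The median difference of the 9 promoters, on the −log2 rank scale where positive values are stronger after PHx, was −0.50 at 48 h, 0.16 at 72 h and 0.15 at 96 h, against −0.18, −0.22 and −0.08 for coding promoters as a whole. The 48 h libraries had the lowest fold enrichment over the members, with a sum of 65.3 and 70.9 over the 9 promoters, against 86.4 and 89.2 in undamaged liver, 95.3 and 81.4 at 72 h and, by 96 h, 90.7 and 85.2. The median fold enrichment of whole lists was 3.95 and 3.73 at 48 h, against 4.55 and 5.07 at 0 h.

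**Figure D2:**
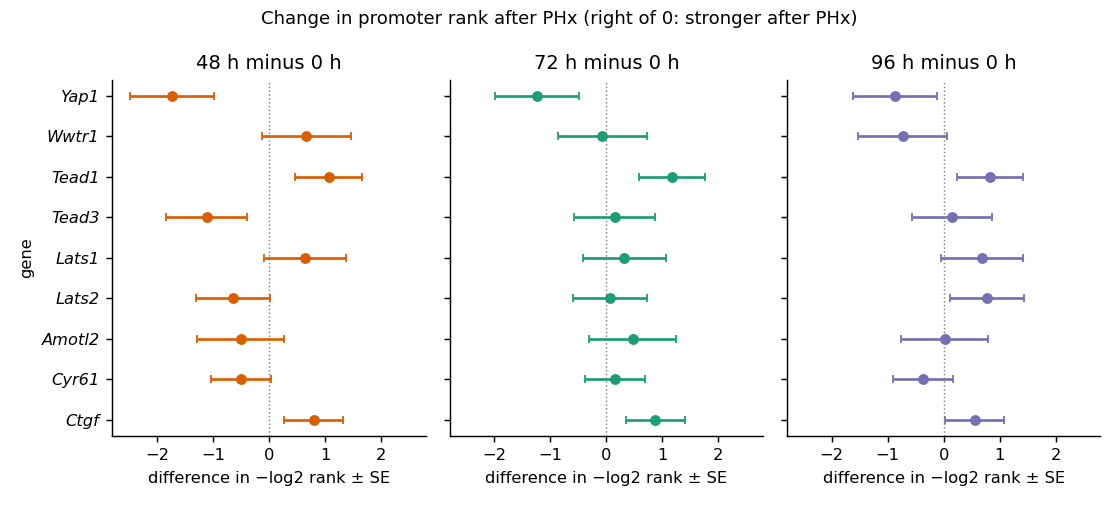
Difference in −log2 rank between each time point and 0 h for the 9 promoters, with bars of 1 SE from the limma fit and values right of 0 stronger after PHx. Yap1 lies left of 0 and Tead1, Lats1 and Ctgf right of 0 at all 3 times, and no difference passed the adjusted threshold.

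The coactivators came first. The Yap1 promoter (chr9:8003253-8005204, mm10), whose summit lay in the first part of the gene, had ranks of 3242 and 1769 at 0 h, then 12009 and 5309 (48 h), 3212 and 9949 (72 h) and 3741 and 5142 (96 h). Both 48 h and both 96 h libraries were weaker than both 0 h libraries, and the 72 h libraries overlapped them. Its difference from 0 h was −1.74 ± 0.75 (SE) at 48 h, −1.24 ± 0.75 at 72 h and −0.87 ± 0.75 at 96 h, with limma adjusted p of 0.358, 0.705 and 0.893. The mean of the 3 times gave −1.28 ± 0.61 with an adjusted p of 0.516. The sizes depended on single libraries: the 48 h value was −1.15 without 48 h replicate 1, and the 72 h value was −0.42, −0.80 or −2.06 once 72 h replicate 2, 0 h replicate 2 or 72 h replicate 1 was left out. For 96 h the value became −0.44 on dropping 0 h replicate 2 and −1.31 on dropping 0 h replicate 1, and the mean of the 3 times −0.85 without 0 h replicate 2. In fold enrichment, the 0 h libraries gave 11.9 and 13.9 here and the 48 h libraries 7.06 and 8.74.

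The Wwtr1 promoter (chr3:57574900-57576813) had ranks of 2850 and 2913 at 0 h, then 3093 and 1072 (48 h), 4285 and 2156 (72 h) and 2848 and 8078 (96 h). The ranks after PHx lay on both sides of the 2 closely spaced 0 h values at every time. The difference at 48 h was 0.66 ± 0.80 (SE), with a limma adjusted p of 0.787. It was −0.10 or 1.43 once 48 h replicate 2 or 1 was left out. The fitted 48 h values of Yap1 and Wwtr1 had opposite signs, and the difference between the genes was not tested.

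Of the TEAD partners, Tead1 gave the one member promoter with all 6 libraries after PHx stronger by rank than both at 0 h. Its promoter (chr7:112678440-112680209), with the summit in a noncoding part of an exon 19 bases downstream of a start, had ranks of 22184 and 28448 at 0 h, then 15409 and 9328 (48 h), 8070 and 15405 (72 h) and 16855 and 11892 (96 h). Such a separation was found for 4.44% of coding promoters in the stronger direction and for 7.52% in the weaker direction. In fold enrichment it did not hold for Tead1. There 48 h replicate 1 (6.96) lay between the 0 h values of 7.55 and 6.71, and the other libraries after PHx lay above both. The difference was 1.07 ± 0.60 (SE) at 48 h, 1.17 ± 0.60 at 72 h and 0.83 ± 0.60 at 96 h, with limma adjusted p of 0.484, 0.641 and 0.869. For the mean of the 3 times it was 1.02 ± 0.49, with an adjusted p of 0.516. Dropping 48 h replicate 2 brought the 48 h value to 0.71, and dropping 72 h replicate 1 brought the 72 h value to 0.71. The same gene has an alternative start, whose region (chr7:112742902-112743975) was listed in 6 of the 8 libraries at ranks from 31588 to 68922.

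Tead1 also had more listed regions after PHx. Its territory of 227.49 kb of gene body plus flanks held 81 regions, of which 24 and 19 were listed at 0 h, then 25 and 38 (48 h), 38 and 37 (72 h) and 34 and 34 (96 h). Of the 81, 15 were listed in every library and so add nothing to the change in counts. Another 39 were listed in 1 library alone, as were 165924 of all 315767 regions. Longer lists hold more regions of any gene, so the counts were also scaled to 100000 intervals of the list. The scaled counts were 18.9 and 18.1 at 0 h, then 21.2 and 27.3 (48 h), 27.1 and 23.9 (72 h) and 23.5 and 26.6 (96 h), again with all 6 libraries after PHx above both 0 h libraries. Among the 13709 coding genes with at least 10 regions, 3.41% had this separation upward and 11.4% downward. Of the other 7 members with at least 10 regions, 0 had it in either direction. The separation was first noticed in these counts, and no test was run on it.

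**Figure D3:**
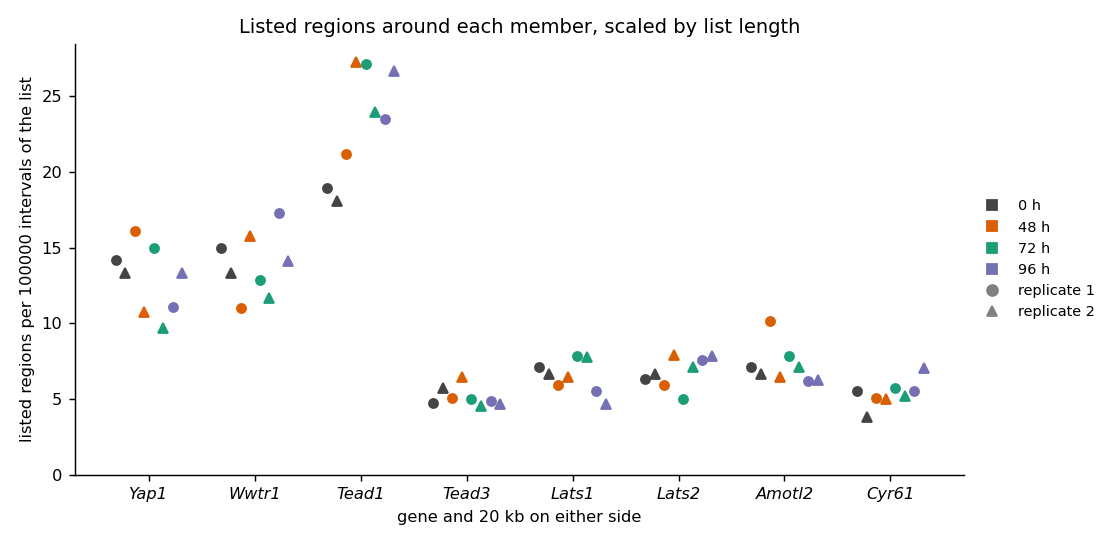
Regions listed around each gene (body and 20 kb on either side) per 100000 intervals of the library's list, for the 8 genes with at least 10 regions. For Tead1 the 6 libraries after PHx lie between 21.2 and 27.3, above the 0 h values of 18.9 and 18.1, and for each of the other 7 genes the 6 libraries after PHx, as 1 group, overlap the 0 h libraries.

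The Tead3 promoter (chr17:28349578-28351528) had ranks of 3860 and 5964 at 0 h, then 12953 and 8347 (48 h), 4687 and 3983 (72 h) and 2505 and 7462 (96 h). Both 48 h libraries were weaker than both 0 h libraries, and the later times overlapped them. Its difference at 48 h was −1.12 ± 0.72 (SE), with a limma adjusted p of 0.557. Tead1 and Tead3 therefore lay on opposite sides of 0 h at 48 h.

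The kinase promoters came next. The Lats1 promoter (chr10:7680701-7682013) had ranks of 9820 and 6235 at 0 h, then 8706 and 2878 (48 h), 3727 and 10506 (72 h) and 3627 and 6525 (96 h). The groups overlapped at each time. The differences were 0.64 ± 0.74 (SE) at 48 h, 0.32 ± 0.74 at 72 h and 0.69 ± 0.74 at 96 h, with limma adjusted p of 0.773, 0.940 and 0.918, and the mean of the 3 times gave 0.55 ± 0.60 with an adjusted p of 0.805. With single libraries left out, the Lats1 values ran from −0.15 to 1.44 at 48 h, from −0.42 to 1.07 at 72 h, from 0.26 to 1.11 at 96 h and from 0.22 to 0.88 for the mean of the 3 times. The lowest values came without 48 h replicate 2, 72 h replicate 1, 96 h replicate 1 and 0 h replicate 1, in that order. The Lats2 promoter (chr14:57745286-57746682) had ranks of 9696 and 11204 at 0 h, then 15030 and 17636 (48 h), 5200 and 19014 (72 h) and 6494 and 5664 (96 h). It was weaker than both 0 h libraries in both 48 h libraries and stronger in both 96 h libraries. Its difference at 48 h was −0.64 ± 0.66 (SE), with a limma adjusted p of 0.740.

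A region inside a Lats2 intron had the largest 48 h difference of the 40 distal regions. This region (chr14:57729774-57730796), with its summit 4.2 kb downstream of a Lats2 start, had ranks of 9512 and 23261 at 0 h, then 8872 and 1972 (48 h), 4316 and 2227 (72 h) and 4658 and 6913 (96 h). By rank, all 6 libraries after PHx were stronger than both at 0 h, as were 4.49% of all regions tested (6.05% in the weaker direction). The margin to 0 h replicate 1 was small at 48 h replicate 1. In fold enrichment this separation did not hold. There 48 h replicate 1 (11.39) and 96 h replicate 2 (16.15) lay between the 0 h values of 16.92 and 11.34, and the other libraries after PHx lay above both. The difference was 1.83 ± 0.75 (SE) at 48 h, 2.26 ± 0.75 at 72 h, 1.39 ± 0.75 at 96 h and 1.83 ± 0.62 for the mean of the 3 times. The limma adjusted p was 0.335, 0.447, 0.820 and 0.351, so none of the 4 passed. Without 0 h replicate 2, the weakest library here, the values were 1.19 at 48 h, 0.75 at 96 h and 1.18 for the mean of the 3 times, and at 48 h it was 0.75 or 2.92 when 48 h replicate 2 or 1 was dropped. At 72 h, before adjustment, p was 0.00466. This region ranked ahead of the Lats2 promoter in the median over libraries and was stronger than 91.0% of the regions listed everywhere. The AP-1 letters TGACTCA lay at 57730015 to 57730021, with their centre 49 bases from the summit, and the 300 bases around the summit held no GGAATG.

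**Figure D4:**
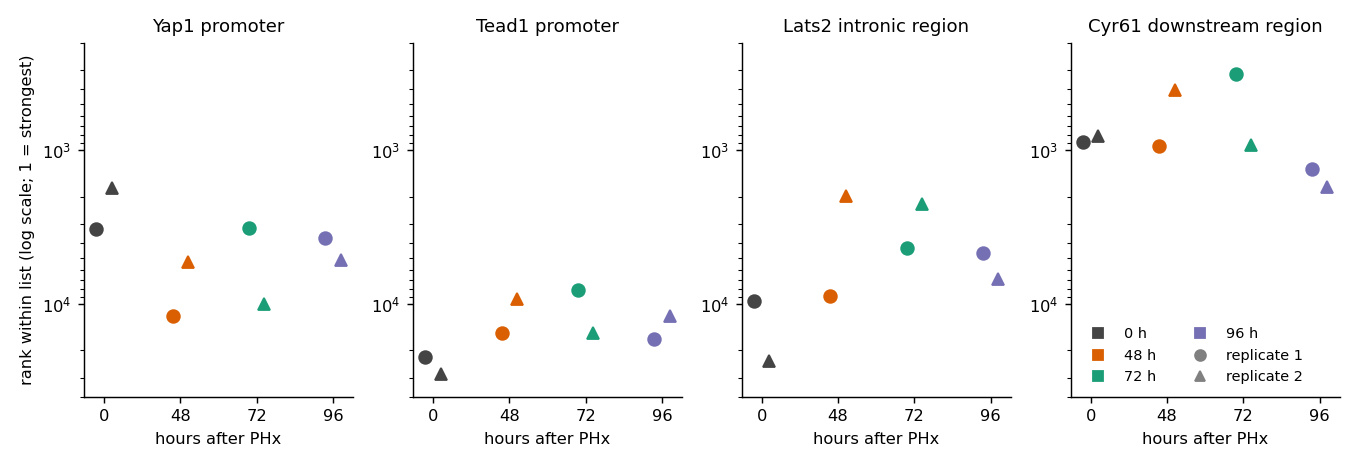
Rank within the list of each library, on a log axis with the strongest rank at the top, against hours after PHx for the promoters of Yap1 and Tead1, the Lats2 intronic region and the region downstream of Cyr61. The Tead1 and Lats2 points after PHx lie above both 0 h points, the Yap1 points at 48 and 96 h lie below, and the Cyr61 region stays between ranks 319 and 1743.

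Amotl2, the inhibitor, had one of the strongest promoters of the set. That region (chr9:102717113-102718208) had ranks of 3565 and 2199 at 0 h, then 3398 and 4673 (48 h), 2656 and 1541 (72 h) and 4180 and 1820 (96 h). The ranks overlapped between 0 h and each later time. The difference at 48 h was −0.51 ± 0.78 (SE), with a limma adjusted p of 0.837, and it changed sign when regions were ranked by fold enrichment. It was −0.16, −0.28 or −0.86 once 0 h replicate 2, 48 h replicate 2 or 0 h replicate 1 was left out. A second, weaker promoter region (chr9:102718295-102718558) was listed in 7 of the 8 libraries at ranks from 36553 to 117407.

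The 3 targets had weak promoters or none. The Cyr61 promoter (chr3:145649284-145650137), with its summit in a coding exon, had ranks of 25726 and 23051 at 0 h, then 18200 and 64784 (48 h), 21155 and 22523 (72 h) and 32281 and 30516 (96 h). The 48 h libraries lay on either side of the 0 h values, both 72 h libraries were slightly stronger and both 96 h libraries weaker. The difference at 48 h was −0.50 ± 0.54 (SE), with a limma adjusted p of 0.758, and without 48 h replicate 2 it was 0.42.

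The Ctgf promoter (chr10:24595300-24596135) had ranks of 34031 and 49239 at 0 h, then 16950 and 32855 (48 h), 23753 and 20998 (72 h) and 17340 and 44889 (96 h). Both libraries at 48 h and at 72 h were stronger than both at 0 h, and those at 96 h overlapped them. The difference was 0.79 ± 0.53 (SE) at 48 h, 0.87 ± 0.53 at 72 h and 0.55 ± 0.53 at 96 h, with limma adjusted p of 0.574, 0.705 and 0.904. The mean of the 3 times gave 0.74 ± 0.43 with an adjusted p of 0.605. The 48 h value was 0.32, 0.53 or 1.27 once 48 h replicate 1, 0 h replicate 2 or 48 h replicate 2 was left out. At 96 h it was −0.13, 0.29 or 1.24 once 96 h replicate 1, 0 h replicate 2 or 96 h replicate 2 was left out, and the mean of the 3 times was 0.47 on dropping 0 h replicate 2. Cyr61 and Ctgf encode related CCN proteins, and their fitted 48 h values had opposite signs, which for Cyr61 rested on 48 h replicate 2.

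Cyr61 nonetheless had the strongest region of the whole set. An intergenic region 15.5 kb downstream of its start (chr3:145633970-145634814) had ranks of 887 and 803 at 0 h, then 942 and 407 (48 h), 319 and 929 (72 h) and 1316 and 1743 (96 h). It was stronger than 98.7% of the regions listed in every library. Both 96 h libraries were weaker than both at 0 h, and the 48 and 72 h libraries overlapped them. Its fold enrichment ran from 13.6 to 20.5, whereas that of the Cyr61 promoter ran from 1.95 to 3.84. Distance gives the gene assignment here, and no link between this region and Cyr61 was measured.

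The distal region of Ctgf, 4.1 kb upstream (chr10:24591178-24591489, in an intron of the Gm15270 transcript), had ranks of 14663 and 14974 at 0 h, then 12349 and 21095 (48 h), 15274 and 35872 (72 h) and 24885 and 45369 (96 h). Both libraries at 72 h and at 96 h were weaker than both at 0 h there, whereas the Ctgf promoter had ranked stronger at 72 h. For Ankrd1, 1 of 7 regions was listed in every library, 19 kb downstream in an intron of the neighbour Rpp30 (chr19:36100684-36101069), at ranks of 56764 and 62862 at 0 h, then 37294 and 54984 (48 h), 48450 and 54680 (72 h) and 60580 and 33555 (96 h). It was stronger than 15.6% of the regions listed in every library.

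**Figure D5:**
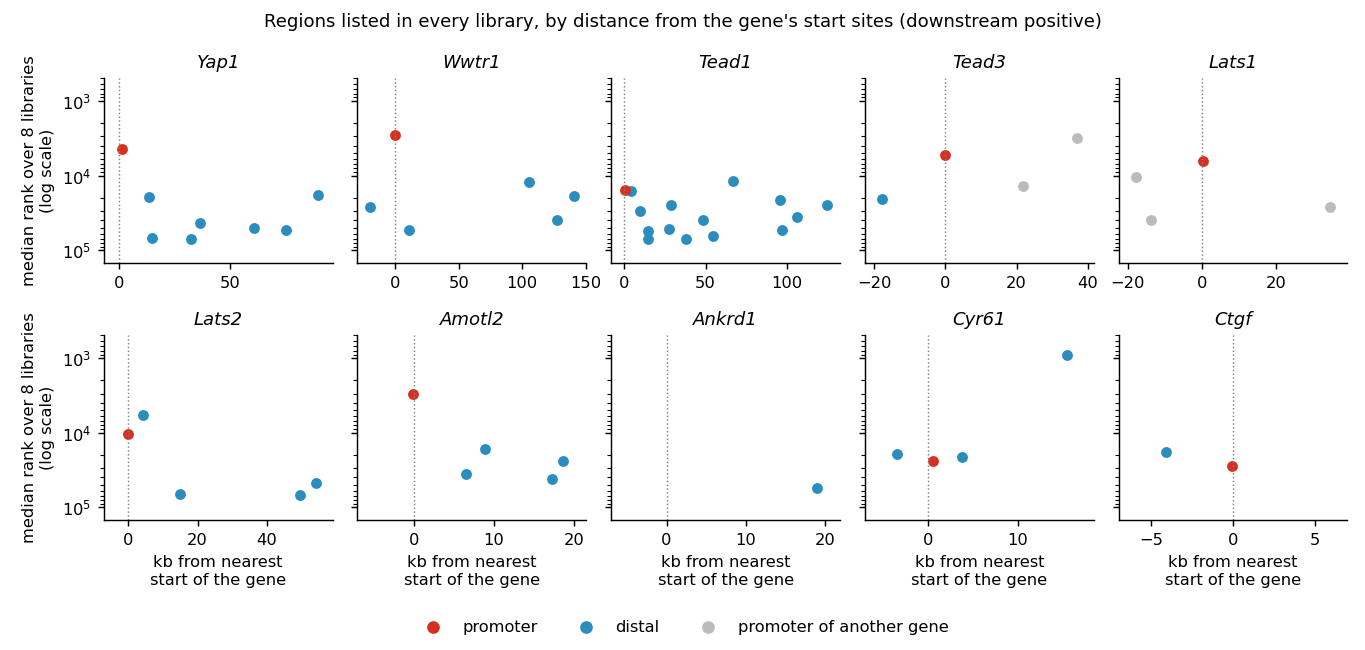
Median rank over the 8 libraries, on a log axis with the strongest at the top, against the distance of the summit from the nearest start of the gene in kb, for the 54 member regions listed in every library. The strongest point is the region 15.5 kb downstream of Cyr61, and Ankrd1 has no promoter point.

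Across the set, 54 of the 280 regions were listed in every library (19.3%, against 18.2% of all regions), and 137 in 1 library alone. Of the 54, 9 were promoters, 40 were distal and 5 were promoters of neighbouring genes. Tead1 had 14 of the distal regions, Yap1 7, Wwtr1 5, Lats2 4, Amotl2 4, Cyr61 3, and Tead3, Ankrd1 and Ctgf 1 each. Lats1 had none, and its 3 other regions were promoters of Pcmt1, Nup43 and Katna1. Regions outside the promoter were densest around Amotl2 (7.05 per 100 kb), Cyr61 (6.98) and Yap1 (6.22) and sparsest around Ankrd1 (2.08) and Ctgf (2.31), with a median of 3.06 over coding genes.

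None of the 40 distal regions was called in any contrast by limma, with smallest adjusted p of 0.335 at 48 h, 0.447 at 72 h, 0.803 at 96 h and 0.351 for the mean of the 3 times. At 48 h, 10 of the 40 were stronger and 10 weaker than both 0 h libraries in both libraries, against 19.7% and 24.2% of all regions. At 72 h these counts were 7 and 7, against 19.5% and 22.8%, and at 96 h they were 8 and 8, against 16.3% and 19.5%. The medians of the 40 differences were −0.08, 0.07 and −0.04 at the 3 times, and those of all regions were −0.05, −0.04 and −0.04.

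After the Lats2 intron, the largest positive 48 h differences were found at a region overlapping the end of Cyr61 and at one inside Tead1. The summit of the former lay 3.7 kb downstream of the Cyr61 start, just past the end of the gene. The Cyr61 region (chr3:145645245-145647948) had ranks of 26735 and 28218 at 0 h, then 17342 and 5943 (48 h), 12492 and 31845 (72 h) and 11479 and 25523 (96 h). Its difference at 48 h was 1.44 ± 0.61 (SE), with a limma adjusted p of 0.354, and the difference became 0.66 or 2.21 when 48 h replicate 2 or 1 was dropped. The Tead1 intronic region (chr7:112763318-112764345) had ranks of 18287 and 31772 at 0 h, then 12781 and 7766 (48 h), 27137 and 11744 (72 h) and 14093 and 44068 (96 h). It gave 1.28 ± 0.61 (SE) at 48 h, with a limma adjusted p of 0.412. Both regions were stronger than 0 h in both 48 h libraries and overlapped it at 72 h.

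The largest negative 48 h differences were in introns of Yap1, Amotl2 and the neighbour of Wwtr1. The Yap1 region (chr9:7990739-7991407), 13.5 kb downstream of the start, had ranks of 18015 and 8183 at 0 h, then 16983 and 39060 (48 h), 26109 and 19091 (72 h) and 19961 and 20073 (96 h), and its 48 h difference was −1.08 ± 0.58 (SE) with a limma adjusted p of 0.459, running from −1.69 to −0.48 as each of the 4 libraries at 0 and 48 h was left out. The Amotl2 region (chr9:102723388-102724557) had ranks of 27279 and 34704 at 0 h, then 64131 and 64147 (48 h), 37955 and 27663 (72 h) and 17442 and 44919 (96 h). Both 48 h values lay far outside the 0 h pair and the later times overlapped it, with a 48 h difference of −1.06 ± 0.49 (SE) and a limma adjusted p of 0.389. The region in an intron of Tm4sf4 (chr3:57434899-57435826), within 20 kb of the end of Wwtr1, had ranks of 18526 and 10162 at 0 h, then 29289 and 24675 (48 h), 18189 and 26409 (72 h) and 8040 and 19503 (96 h). Its 48 h difference was −0.97 ± 0.58 (SE), with a limma adjusted p of 0.523, and −0.54 without 0 h replicate 2.

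Each remaining gene was followed at its best distal region. For Yap1 that region (chr9:7913945-7914964) was intergenic, 90.0 kb downstream of the start and beyond the end of the gene. Its ranks were 27843 and 19634 at 0 h, then 7908 and 16460 (48 h), 24882 and 20354 (72 h) and 9084 and 12256 (96 h), so that both libraries at 48 h and at 96 h were stronger than both at 0 h, the opposite order to the Yap1 promoter at these times. In Wwtr1 the best region was intronic (chr3:57470194-57470731), with ranks of 11815 and 13687 at 0 h, then 10456 and 2818 (48 h), 11298 and 12287 (72 h) and 16764 and 14356 (96 h). The best region of Tead1 was also intronic (chr7:112825811-112826728), at ranks from 6308 to 18370, and it ranked ahead of the Tead1 promoter in the median. That of Tead3 lay 17.8 kb upstream (chr17:28368351-28368953), with ranks of 23214 and 23650 at 0 h, then 8579 and 16330 (48 h), 47405 and 18165 (72 h) and 11627 and 33555 (96 h). Amotl2 had its best distal region 8.8 kb downstream of a start (chr9:102726006-102726679), with ranks of 17162 and 15830 at 0 h, then 30607 and 22823 (48 h), 8570 and 6921 (72 h) and 19377 and 12984 (96 h).

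Among the 5 promoters of neighbouring genes, that of Katna1 near Lats1 (chr10:7725699-7726857) had ranks of 12432 and 7404 at 0 h, then 23385 and 41445 (48 h), 29915 and 33997 (72 h) and 31376 and 13612 (96 h). Its difference at 48 h was −1.70, with the smallest limma adjusted p of the 54 regions (0.231). Katna1 encodes a subunit of the microtubule-severing protein katanin and belongs to the set by position alone.

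Regions listed in some libraries were counted by whether both libraries of a time point and neither at 0 h listed them. Among the members' own promoter and distal regions 214 were of this kind, with promoters of neighbouring genes left out of the members though not of the comparison set, and 4 of the 214 appeared in both 48 h libraries and neither 0 h library (1.87%, against 1.29% of all such regions), and 4 showed the reverse (1.87% against 2.08%). The corresponding gains at 72 and 96 h were 9 (4.21% against 3.43%) and 7 (3.27% against 1.90%), and the losses were 3 at each time (1.40% against 0.863% and 1.15%). The gains at 48 h lay near Wwtr1, Tead1, Tead3 and Amotl2, and the losses near Yap1, Tead1, Tead3 and Lats2.

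Letter matches were also counted in 300 bases around the summit of the measured regions. GGAATG on either strand was present in 5 of the 9 member promoters (55.6%), against 9.63% of 12018 coding promoters, and in 3 of 9 when 200 bases were searched (6.17% of coding promoters). The 5 were those of Wwtr1, Tead1, Lats2, Amotl2 and Cyr61. The Yap1 match printed above fell outside because the summit of its region lay 1.1 kb into the gene. The printed Cyr61 match (145650083 to 145650088) fell outside too, because the summit lay at 145649397. The Cyr61 match counted here is therefore a different one, inside the gene. Of the 40 distal regions, 7 held the letters (17.5%), against 15.0% of all regions. The longer TEAD letters GGAATGT were in 1 of the 9 promoters (11.1%, against 1.94% of coding promoters). In 200 bases they were in 0 of 9 (against 1.1%). Of the 40 distal regions, 2 held them in 300 bases (5.0%, against 4.2% of all regions). The AP-1 letters TGANTCA were found in 4 of the 40 distal regions (10.0%, against 10.1% of all regions) and the forkhead letters TGTTTAC in 6 (15.0% against 6.30%). No test was run on these shares.

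The rest of the pathway was read from a list of 30 further Hippo genes. All had a listed promoter, 27 of them in every library (against 60.4% of coding genes), and 0 were called by limma in any contrast (smallest adjusted p 0.467 at 48 h). At 48 h, 5 were stronger and 5 weaker than both 0 h libraries, at 72 h 4 and 8, and at 96 h 4 and 6, to be read against the shares of coding promoters given above. Their median differences at the 3 times were 0.04, −0.06 and 0.03. The largest positive 48 h values belonged to Tead4, another TEAD factor (1.5 ± 0.89, SE), and the kinase gene Taok1 (1.40 ± 0.80), and the largest negative ones to the LIM-domain gene Limd1 (−1.33 ± 0.76) and to Rassf6 (−1.14 ± 0.79), with adjusted p from 0.495 to 0.591. Without single libraries the value of Rassf6 was −0.37 (0 h replicate 2) or −1.90 (0 h replicate 1) and that of Limd1 −0.82 (0 h replicate 1). The Rassf6 promoter was weaker than both 0 h libraries in all 6 libraries after PHx. Over the 27 genes this held for 3, and 1 was stronger in all 6, against 7.52% and 4.44% of coding promoters. The Tead4 promoter ranked 2457 and 4711 at 0 h and 392 and 3693 at 48 h, so that these groups overlapped, and without 48 h replicate 1 its difference was −0.12. At 72 h (1543 and 675) and at 96 h (1255 and 2447) both libraries were stronger than both at 0 h.

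Of 16 other YAP target genes, 11 had a promoter listed in every library (against 60.4% of coding genes) and 0 were called by limma (smallest adjusted p 0.293 at 48 h). At 48 h, 4 were stronger and 1 weaker than both 0 h libraries, at 72 h 2 and 3, and at 96 h 2 and 1, to be read against the same shares of coding promoters (17.0% and 28.5%, 15.4% and 31.1%, and 14.1% and 19.8%). The medians of the 11 differences were 0.36, −0.38 and 0.01 at the 3 times. Nt5e, which encodes the ectonucleotidase CD73, had the largest positive value at 48 h (1.77 ± 0.67, SE, adjusted p 0.293), with ranks of 14133 and 33903 at 0 h, then 3797 and 10897 (48 h), 7064 and 10537 (72 h) and 7504 and 14143 (96 h). Rbms3, an RNA-binding protein gene, followed with 1.19 ± 0.47 (adjusted p 0.309) and had all 6 libraries after PHx stronger than both at 0 h. Asap1 (−1.0 ± 0.76, adjusted p 0.627) and Gadd45a (−0.74 ± 0.97, adjusted p 0.808) had the largest negative values, and the 48 h groups overlapped for both. The sign of Gadd45a turned to 0.77 on dropping 0 h replicate 1 and to 0.31 when regions were ranked by fold enrichment. Without single libraries Asap1 ranged from −1.68 to −0.33, each of the 4 libraries at 0 and 48 h moving it by over 1.5 times, and Nt5e gave 1.14 or 1.01 when 0 h replicate 2 or 48 h replicate 1 was dropped.

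The promoters whose −log2 ranks over the 8 libraries followed that of Yap1 most closely were those of Flad1 (Pearson r = 0.967), Mast3 (0.964) and Pprc1 (0.954). For Ctgf they were Gm5678 (0.970), Otos (0.969) and Plin3 (0.967). These values describe 8 points in which all promoters of a library share its depth, were picked as the highest of all coding promoters and carry no test.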

How the data were processed

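Bulk ATAC-Seq of mouse hepatocytes was analysed in 8 libraries, grouped by their titles. Per the study's methods, the authors ran the ENCODE pipeline: trimming, Bowtie2 mapping to mm10, duplicate removal and MACS2 peak calling per library. Tool versions were not given in the sources used here. The deposited peak lists were called at p 0.01 with Tn5-shifted tags, a maximum list length and removal of blacklisted regions. They give MACS2's fold enrichment (a ratio to local background), −log10 p, −log10 q and a display score that the authors' peak caller wrote, which was not used here. They hold no counts, so the study's count test could not be run and no interval was computed.

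Lines sharing an interval were collapsed to the highest −log10 p and ranked within each list. Intervals overlapping by 1 bp in any list were merged into regions, each taking its best rank per library. Gene bodies and starts came from GENCODE M21 (Cyr61 is Ccn1 and Ctgf is Ccn2 there). The 57473 regions in all 8 lists were fitted with limma 3.58.1 (R 4.3.3; trended eBayes) on −log2 rank, with Benjamini-Hochberg adjustment over all of them and a threshold of 0.05, and the code was tested on simulated data. SE is the fit's standard error with n = 2 libraries per time. Per the paper, hepatocytes were prepared from several mice at each time, and replicates were independent. At 0 and 48 h it describes more biological replicates of this assay than the 2 libraries analysed here. The labels do not tie libraries to mice. The list of 72 h replicate 2 carried another sequencing run label than the other 7, and that run holds a single library.

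Members and gene lists were chosen with earlier results of these data known. Named were all 10 members and the best distal region of each except Lats1, which had none listed in every library. The 3 largest positive and 3 largest negative distal differences at 48 h were named too. In the 2 gene lists these were the 2 largest in each direction. Tead1's listed-region counts were added after the values were seen.
Endothelial, stellate and biliary marker promoters had summed fold enrichments of 28.9 to 39.6, 35.8 to 47.7 and 26.2 to 39.2 over the libraries.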

Additional observations from a re-analysis of the deposited data

Results flagged for a closer look

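At 6 of the 49 promoter and distal regions of the members that every library listed, the libraries of 2 time points lay on opposite sides of both 0 h libraries. This was found at 12.2% of these regions and at 6.24% of all regions, the time points share the 0 h libraries, and the differences between time points were not tested. The values that follow are differences in mean −log2 rank, where positive means stronger at the later time. The Lats2 promoter, weaker than 0 h at 48 h and stronger at 96 h, gave 1.42 between these times. The Cyr61 promoter, stronger at 72 h and weaker at 96 h, gave −0.52. The Wwtr1 intronic region at chr3:57470194, stronger at 48 h and weaker at 96 h, gave −1.51. Weaker at 48 h and stronger at 72 h were the Tead1 intronic regions at chr7:112806751 (1.41) and chr7:112883783 (2.18) and the Amotl2 intronic region at chr9:102726006 (1.78).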

How the results depend on the processing

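No alternative called a member promoter or a distal member region. Over 566 refitted values of 39 named differences the smallest adjusted p was 0.136, and 10 changed sign. Ranking by fold enrichment gave 0.0441 for Amotl2 and 0.31 for Gadd45a at 48 h. Leaving out single libraries gave −0.10 to 1.43 for Wwtr1, −0.15 to 1.44 for Lats1, −1.41 to 0.42 for Cyr61, −0.12 to 3.12 for Tead4 and −2.25 to 0.77 for Gadd45a at 48 h, −0.42 to 1.07 for Lats1 at 72 h and −0.13 to 1.24 for Ctgf at 96 h. The 48 h sign changed without 48 h replicate 2 for Wwtr1, Lats1 and Cyr61, 48 h replicate 1 for Tead4 and 0 h replicate 1 for Gadd45a. Leaving out a library moved 28 of the 39 differences by over 1.5 times.

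Regions called at 48 h (7) became 1 with probit percentiles, 0 with fold enrichment, 17 within 100 bp of the summit, 74 with regions in at least 2 lists, and 0 to 20 without single libraries. At 72 h (0) they became 1 with the 50000 strongest intervals, 13 with at least 2 lists and 0 to 1 without single libraries, and at 96 h (0) 1 with at least 2 lists. For the mean of the 3 times (0) they became 10 with probit percentiles, 2 with the 50000 strongest, 4 at q under 0.05, 195 with at least 2 lists and 0 to 5 without single libraries. The cause was not tested. By fold enrichment, 1 promoter was stronger at 48 h (20.6% of coding promoters under that ranking), 1 weaker at 72 h (26.6%) and 4 stronger at 96 h (14.7%). A flank of 50 kb gave 61 distal regions, and 200 bases gave GGAATG in 3 promoters and 3 distal regions.

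Same-numbered libraries did not deviate together (correlations −0.063 to 0.11), so the replicate numbers were not taken as pairing. The replicate block gave 6 calls at 48 h and 0 in the other contrasts. Depth is unknown, and 2 libraries per time limit every comparison.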
